A study of Homo sapiens with 6 samples.

Results

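ADGRG2, an adhesion G protein-coupled receptor, was above background on 0 of 3 arrays of H460 cells of high invasiveness, against 3 of 3 arrays of H460 cells of low invasiveness. It is described here with 9 further receptors of its family, ADGRG1, ADGRL1, ADGRL2, ADGRL4, ADGRE5, ADGRF1, ADGRF4, ADGRA3 and ADGRB2, found among the array's probes by gene symbol. These 10 genes belong to a human family of 33, and the annotation used pairs probes with 20045 genes in all. ADGRG2 was chosen for its loss in the invasive cells, so its own difference is a description and is given without a test. Of the 10 genes, 5 passed the filter on low values, 4 had probes that were not above background on any array, and ADGRB2 was not analysed here because the annotation used assigns it no probe.

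H460 is an established human large cell lung carcinoma line. Cells were seeded above a membrane coated with basement membrane extract. Those that passed through it were collected as H-INV cells, and those that stayed above it as L-INV cells. The sample labels give 48 hours per selection and 6 rounds, while the methods give a longer time and fewer rounds. Both subpopulations came from the same cell line, no treatment apart from this selection is stated, and both were grown in glucose-free medium. Whether they differed in genotype was not measured. The methods state that stocks were thawed and selected once more, and that the difference in invasiveness fades with passaging. RNA of 3 sets of H-INV cells and 3 sets of L-INV cells was analysed, 1 Illumina HT-12 v4 array per set. Whether each set was selected on its own is not stated, so the p-values reflect no more than how these RNA sets differed among themselves, which may be technical variation.

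Adhesion G protein-coupled receptors carry a long extracellular region that binds matrix or cell surface ligands, followed by a membrane-spanning region that couples to G proteins. In most of them a domain next to the membrane cuts the protein in place, and the end exposed by this cut can act as a tethered agonist. ADGRG2 is best known from the ducts of the male reproductive tract, where it takes part in fluid resorption.

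The scanner intensity of a probe is its brightness on a linear scale, with background included, and its median over all probes was 124 to 126 on the H-INV arrays and 123 to 134 on the L-INV arrays. A probe was called above background on an array where its detection p against that array's negative controls was under 0.01. Of the marker genes checked, 5 of 7 for epithelial lung carcinoma were above background, CDH1 and NKX2-1 not being so on any array. The summed normalized intensity of all 7, by the brightest probe of each, was 2036 to 2109 in H-INV cells and 7826 to 7905 in L-INV cells. These markers did not move together: KRT19 had a log2 fold change of -4.12 and KRT8 of -0.30, KRT7 had 1.09, KRT18 had -0.27 and did not pass limma's test at an adjusted p of 0.05, and EPCAM had a signal on 0 H-INV and 3 L-INV arrays. Their part in the differences of the receptors was not tested. Of leukocyte markers with a probe, 1 of 6 was above background (CD14), as were 0 of 7 endothelial and 2 of 7 fibroblast markers (COL1A1 and PDGFRB, on fewer than 3 arrays each). All 6 arrays lay on 1 chip with the L-INV arrays first, so the effect of chip position and that of subpopulation cannot be told apart.

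The brighter of the 2 ADGRG2 probes had scanner intensities of 115, 121 and 113 on the H-INV arrays, against 1501, 1298 and 1130.4 on the L-INV arrays. The H-INV values lay below the median of all probes on their own arrays, and the groups did not overlap. After background correction, quantile normalization and conversion to log2, the values were 4.55, 4.65 and 4.44 in H-INV cells, against 10.23, 10.20 and 10.08 in L-INV cells. The detection p of this probe was 0.382, 0.213 and 0.643 on the H-INV arrays and 0 on each L-INV array.

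This probe averaged 4.55 ± 0.105 on the H-INV arrays, against 10.17 ± 0.0785 on the L-INV arrays (log2 units, SD over 3 arrays), a log2 difference of -5.62. A probe that is not above background gives only a bound. With this processing, ADGRG2 in H-INV cells was lower by at least 26.4-fold, or 4.72 on the log2 scale. For this bound the L-INV mean was divided by what each H-INV array could just have shown. That was the array's lowest value above background, or the probe's own value where that was higher. Bounds here and below hold for this processing only. With a larger offset in the background correction (50), the whole log2 difference was -4.37. In the whole table, 2.60% of the 10279 genes tested showed this pattern of 0 H-INV arrays and 3 L-INV arrays above background for the probe used. Since ADGRG2 was picked for this pattern, nothing is read from that share. In bulk RNA, fewer cells with the transcript and less of it per cell cannot be told apart, here or in the results that follow.

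The other ADGRG2 probe had scanner intensities of 131, 131 and 124 on the H-INV arrays, against 979, 856 and 738 on the L-INV arrays. Its normalized means were 4.95 ± 0.182 on the H-INV arrays, against 9.52 ± 0.0819 on the L-INV arrays (log2 units, SD over 3 arrays), a log2 difference of -4.56 and a bound of at least 16.8-fold lower. Its detection p was 0.0364, 0.0455 and 0.127 on the H-INV arrays, so that it too was not above background there, though its H-INV values lay above the array median on 2 of 3 arrays. Both probes thus showed the same arrays as dim and the same arrays as bright. The size of the difference depended on how values near background were treated, and was -3.42 on the log2 scale without background correction.

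**Figure D1:**
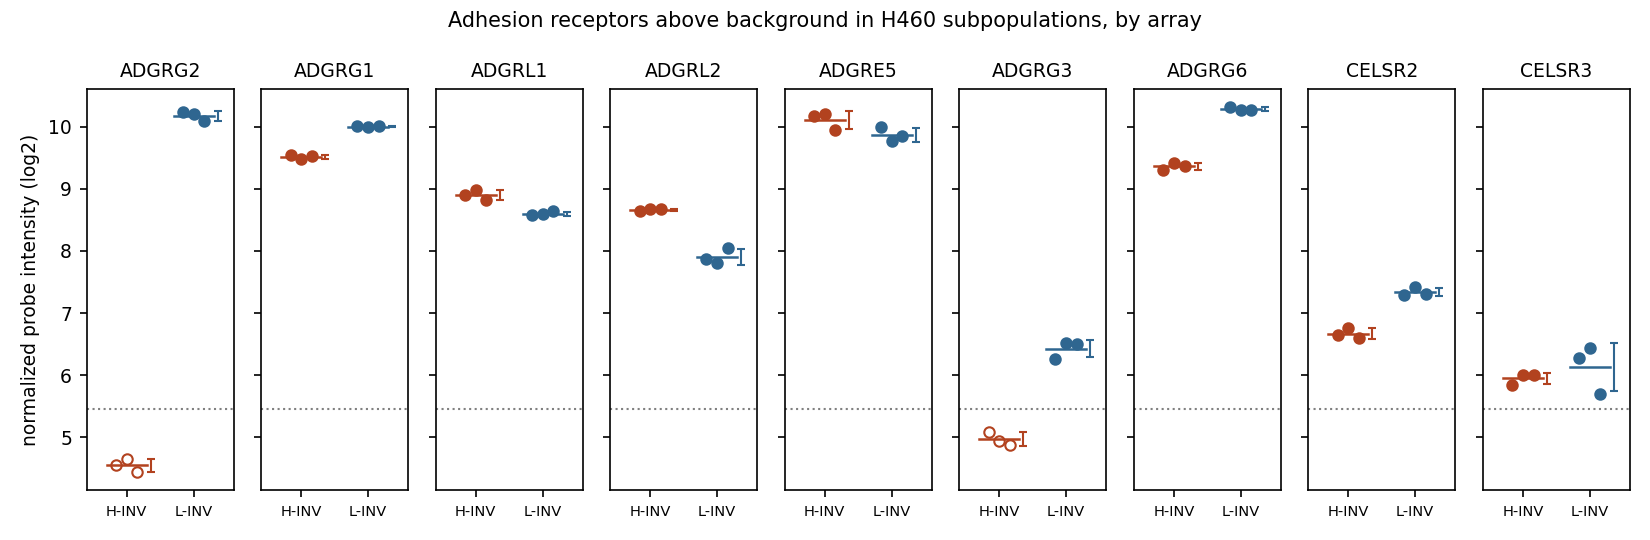
Normalized log2 probe intensity of the 9 adhesion receptors above background on at least 3 arrays, by array, in H-INV cells (left of each panel) and L-INV cells (right), for the probe used. Filled points are above background and open points are not, horizontal lines are means, bars are SD (n = 3 arrays each), and the dotted line is the mean over arrays of the lowest value above background. Levels can be compared within a panel only, and ADGRG2 has open points in H-INV cells at 4.44 to 4.65 and filled points in L-INV cells at 10.08 to 10.23.

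The stretch around the annotated start of ADGRG2 is shown because the gene's RNA differed between background and a bright signal, with ADGRG6 and ADGRG1, relatives that stayed above background in both subpopulations, for comparison. The sequences are from RefSeq (GRCh38.p14), run 5′ to 3′ on the gene's strand from 250 bases before to 50 bases after the start, and have the GC box GGGCGG, on either strand, in capitals. The ADGRG2 window lies at chrX:19122419-19122718 on the minus strand, that of ADGRG6 at chr6:142301757-142302056 and the first of 3 ADGRG1 windows at chr16:57619488-57619787, both on the plus strand.
ADGRG2: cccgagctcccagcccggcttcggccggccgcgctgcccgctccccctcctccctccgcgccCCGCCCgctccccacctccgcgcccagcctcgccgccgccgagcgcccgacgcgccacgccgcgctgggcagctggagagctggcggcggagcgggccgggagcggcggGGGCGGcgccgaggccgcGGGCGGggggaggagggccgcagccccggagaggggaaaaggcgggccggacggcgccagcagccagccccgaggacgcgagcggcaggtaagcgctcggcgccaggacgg
ADGRG6: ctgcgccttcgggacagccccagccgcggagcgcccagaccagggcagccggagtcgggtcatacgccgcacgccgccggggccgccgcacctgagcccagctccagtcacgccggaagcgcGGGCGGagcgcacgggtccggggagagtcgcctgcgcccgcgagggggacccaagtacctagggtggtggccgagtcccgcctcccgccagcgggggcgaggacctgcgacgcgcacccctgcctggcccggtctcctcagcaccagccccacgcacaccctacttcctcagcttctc
ADGRG1: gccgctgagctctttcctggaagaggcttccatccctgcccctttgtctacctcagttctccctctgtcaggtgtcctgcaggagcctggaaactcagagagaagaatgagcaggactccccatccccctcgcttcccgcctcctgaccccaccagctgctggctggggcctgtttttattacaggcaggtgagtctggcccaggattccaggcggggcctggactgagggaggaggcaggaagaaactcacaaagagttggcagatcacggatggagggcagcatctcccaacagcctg
The ADGRG2 window holds 50 CpG dinucleotides and 83.3% G or C, and 98.7% of the 35116 windows in the table hold fewer CpG. The ADGRG6 window holds 36 and the ADGRG1 window 5, against a median of 14 over all windows. The GC box occurs 3 times in the ADGRG2 window, once in that of ADGRG6 and not in that of ADGRG1, and 45.0% of all windows hold it. None of these windows holds TATAAA (11.5% of all windows), CCAAT (34.6%) or TGACGTCA (1.85%), each searched on both strands. These matches describe the letters of the reference genome, and methylation or factor binding was not measured. Of the 10 receptors, 8 have a window in the table. A CpG-rich window is not particular to ADGRG2 in the family. The windows of ADGRB3, ADGRB2 and ADGRA3 hold 53, 48 and 40 CpG, that of ADGRA3 with 3 GC boxes. Those of ADGRF1 and ADGRF4 hold 2 and 3 CpG.

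On the X chromosome ADGRG2 lies between PHKA2, a regulatory subunit of phosphorylase kinase, and PDHA1, a subunit of pyruvate dehydrogenase. PHKA2 averaged 8.49 ± 0.0601 on the H-INV arrays, against 8.06 ± 0.0804 on the L-INV arrays (log2 units, SD over 3 arrays), which gave 0.43 as the log2 fold change (limma, adjusted p = 0.000983). PDHA1 averaged 11.03 ± 0.0741 on the H-INV arrays, against 11.04 ± 0.0507 on the L-INV arrays, a difference of -0.01 (limma, adjusted p = 0.907). Neither of these neighbouring genes was lower in H-INV cells beyond the spread between arrays.

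The other members were read out of limma's moderated test over all 10279 genes (two-sided, p-values adjusted by Benjamini-Hochberg), and the list was drawn up with results of these data known. A gene was called where its fold change was above 2 and its adjusted p under 0.05, as for 10.2% of all genes (4.22% as higher in H-INV cells, 6.02% as lower). Among the 4 other members tested, 0 passed both thresholds. With the adjusted p alone, which 58.0% of all genes passed, 2 were higher (ADGRL1 and ADGRL2), 1 was lower (ADGRG1) and 1 did not pass (ADGRE5). The groups did not overlap for 3 of these 4 (ADGRG1, ADGRL1 and ADGRL2), as for 64.5% of all genes.

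ADGRG1, a receptor for collagen III and transglutaminase 2 with a role in the developing brain cortex, had scanner intensities of 789, 797 and 853 on the H-INV arrays, against 1293, 1134 and 1072 on the L-INV arrays. The groups did not overlap, and the normalized means were 9.51 ± 0.0331 on the H-INV arrays, against 10.00 ± 0.0112 on the L-INV arrays (log2 units, SD over 3 arrays). It fell by 0.49 on the log2 scale (95% confidence interval -0.63 to -0.35, adjusted p = 0.000193, limma). Of its other probes, 1 fell by 0.52 (adjusted p = 0.00116 in a limma fit of all probes kept), and 1 was not above background on any array. ADGRG1 thus remained a bright signal in H-INV cells, unlike ADGRG2.

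The latrophilins ADGRL1 and ADGRL2 bind teneurins and FLRT proteins on neighbouring cells and are best known from synapses. ADGRL2 had scanner intensities of 466, 494 and 510 on the H-INV arrays, against 378, 325 and 346 on the L-INV arrays, with no overlap. Its means were 8.66 ± 0.0169 on the H-INV arrays, against 7.91 ± 0.127 on the L-INV arrays (log2 units, SD over 3 arrays), a log2 fold change of 0.75 (95% confidence interval 0.57 to 0.93, adjusted p = 6.33e-05, limma). ADGRL2 was the member with the largest rise among those tested.

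ADGRL1 had scanner intensities of 542, 588 and 553 on the H-INV arrays, against 551, 490 and 471 on the L-INV arrays, so that L-INV replicate 1 lay among the H-INV values before normalization. After it, the values were 8.90, 8.98 and 8.82 in H-INV cells, against 8.58, 8.59 and 8.64 in L-INV cells, without overlap. The log2 fold change was 0.30 (95% confidence interval 0.14 to 0.46, adjusted p = 0.00569, limma). A further ADGRL1 probe was not above background on any array.

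ADGRE5, also called CD97, is a receptor of leukocytes and of many carcinomas that binds CD55. Its brightest probe had scanner intensities of 1166, 1225 and 1100.3 on the H-INV arrays, against 1281, 978 and 963 on the L-INV arrays. The groups overlapped also after normalization, with 10.10 ± 0.138 on the H-INV arrays, against 9.87 ± 0.111 on the L-INV arrays (log2 units, SD over 3 arrays). The log2 fold change of 0.23 (95% confidence interval 0.02 to 0.45) did not pass the test (adjusted p = 0.0577, limma, and 0.00887 to 0.172 over the alternatives). Its other probe above background had 0.19 as its log2 fold change (adjusted p = 0.162 in the limma fit of all probes kept), and the remaining one was not above background on any array.

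**Figure D2:**
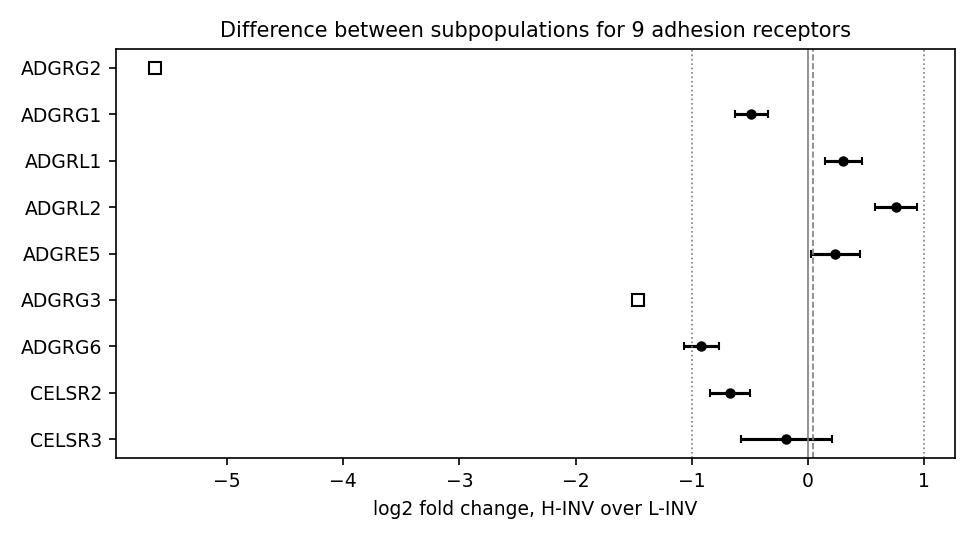
Log2 fold change of H-INV over L-INV cells for the 9 adhesion receptors that passed the filter, with 95% confidence intervals from limma (points and bars). ADGRG2, chosen for this difference, and ADGRG3 are open squares without an interval, since neither was above background on an H-INV array, dotted lines mark a fold change of 2, and the dashed line is the median of all genes (0.05). ADGRL1, ADGRL2 and ADGRE5 lie to the right of 0 and the other receptors to the left.

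The 4 members with probes but no signal were ADGRL4, ADGRF1, ADGRF4 and ADGRA3. ADGRL4 is a receptor of blood vessel endothelium, ADGRF1 responds to synaptamide in neurons of mice, and ADGRA3 is an orphan receptor. The 7 probes of these genes had scanner intensities of 101 to 134 on the H-INV arrays and 102 to 133 on the L-INV arrays. Their detection p ran from 0.0312 to 0.992, so 0 of 7 probes was above background on any array. A difference between subpopulations was not detectable for them at this signal. As for ADGRL4, the endothelial markers PECAM1, CDH5, VWF, KDR, TEK, CLDN5 and EMCN were not above background on any array.

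**Figure D3:**
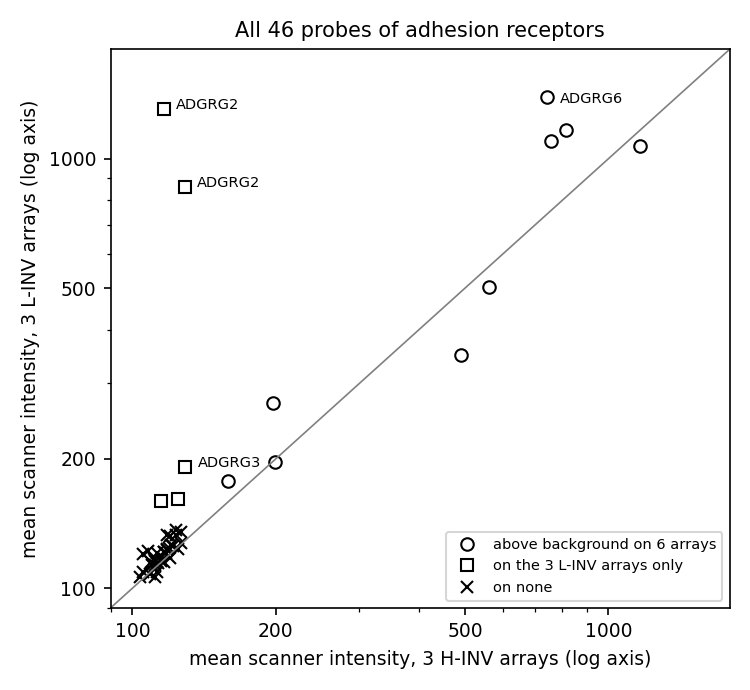
Mean scanner intensity of all 46 probes of adhesion receptors on the 3 H-INV arrays (horizontal, log axis) and the 3 L-INV arrays (vertical, log axis), background included, with a line of equal intensity. Circles are probes above background on 6 arrays, squares those above background on the 3 L-INV arrays only, and crosses those above background on no array. Both ADGRG2 probes stand far above the line, while 32 probes lie in the cluster near background.

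Of the 23 remaining members of the family, 19 had a probe and 4 passed the filter. Of those 4, ADGRG3 passed it only through the L-INV arrays and is therefore described without a test. Of the other 3, 0 passed both thresholds, and with the adjusted p alone ADGRG6 and CELSR2 were lower and CELSR3 did not pass, while 25.4% of all genes were lower. The log2 fold changes of ADGRG6, CELSR2 and CELSR3 were -0.92, -0.67 and -0.19. The median log2 fold change of the 4 listed receptors other than ADGRG2 was 0.27, against 0.05 over all genes tested. The 22 probes of the 15 genes that did not pass had scanner intensities of 101 to 133 on the H-INV arrays and 98.8 to 146 on the L-INV arrays.

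ADGRG3, a receptor of granulocytes, lies next to ADGRG1 on chromosome 16 and had a signal above background by each of its 3 probes, on no H-INV array but on the 3 L-INV arrays. The brightest had scanner intensities of 131, 129 and 128 on the H-INV arrays, against 196, 194 and 184 on the L-INV arrays. Its means were 4.97 ± 0.112 on the H-INV arrays, against 6.43 ± 0.138 on the L-INV arrays (log2 units, SD over 3 arrays), and the groups did not overlap. As a bound, it was lower by at least 1.97-fold in H-INV cells, short of the fold threshold of 2, and the bounds of its other probes were 1.24 and 1.29. Of the leukocyte markers, CD14 fell by 1.51 on the log2 scale and was above background on all arrays, and the summed normalized intensity of the 6 markers was 170 to 177 in H-INV cells and 255 to 290.3 in L-INV cells. PTPRC, CD3E, CSF1R, ITGAM and LYZ were not above background on any array, and the part of CD14 in this result was not tested.

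ADGRG6, which is required for myelination by Schwann cells and binds collagen IV, had scanner intensities of 688, 770 and 774 on the H-INV arrays, against 1570.3, 1350.5 and 1255 on the L-INV arrays. It fell by 0.92 on the log2 scale (95% confidence interval -1.07 to -0.77, adjusted p = 5.90e-06, limma), just short of the fold threshold, and the groups did not overlap. CELSR2, a receptor with cadherin repeats that acts in planar cell polarity, averaged 6.67 ± 0.0867 on the H-INV arrays, against 7.34 ± 0.0680 on the L-INV arrays (log2 units, SD over 3 arrays). It fell by 0.67 in log2 units (limma, adjusted p = 9.02e-05). Its relative CELSR3 had a log2 fold change of -0.19 (95% confidence interval -0.57 to 0.20, adjusted p = 0.378, limma) and overlapping groups.

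Some receptors have neighbours of their own family in the genome. ADGRL1 and ADGRE5 lie next to each other on chromosome 19, with log2 fold changes of 0.30 and 0.23. ADGRG1 and ADGRG3 do so on chromosome 16, with -0.49 for ADGRG1 and a bound of at least 1.97-fold lower for ADGRG3. ADGRL2 and ADGRL4 do so on chromosome 1, where ADGRL2 rose and ADGRL4 was not above background. The difference between the members of a pair was not tested.

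The ligands and surface partners of these receptors were taken as a list of 25 genes, 12 of which were tested. Of these, 2 passed both thresholds as higher and 3 as lower, while 4.22% and 6.02% of all genes did. With the adjusted p alone 3 were higher, 5 lower and 4 did not pass, while 58.0% of all genes passed. The list's median log2 fold change was -0.25, against 0.05 over all genes. FLRT2, a leucine-rich repeat protein that latrophilins bind, had log2 intensities of 5.26, 5.71 and 5.88 in H-INV cells, against 8.98, 9.03 and 8.72 in L-INV cells. It fell by 3.30 in log2 units, with a standard error of 0.16 (limma, adjusted p = 5.00e-07), 2 of the H-INV arrays being above background. CD55, the ligand of ADGRE5 and an inhibitor of complement, had log2 intensities of 9.20, 9.39 and 9.26 in H-INV cells, against 11.25, 11.13 and 10.81 in L-INV cells. It changed by -1.78 in log2 units, with a standard error of 0.11 (limma, adjusted p = 3.32e-06), while its receptor had a log2 fold change of 0.23.

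COL3A1 and TGM2, which encode ligands of ADGRG1, were higher in H-INV cells. COL3A1, the chain of collagen III, averaged 10.36 ± 0.200 on the H-INV arrays, against 9.24 ± 0.0423 on the L-INV arrays (log2 units, SD over 3 arrays), which gave 1.12 as the log2 fold change (limma, adjusted p = 2.64e-05). TGM2, the gene of transglutaminase 2, changed by 1.03 in log2 units (limma, adjusted p = 3.11e-06). COL4A1, a chain of the collagen IV that ADGRG6 binds, averaged 7.13 ± 0.0437 on the H-INV arrays, against 8.53 ± 0.128 on the L-INV arrays, which gave -1.41 as the log2 fold change (limma, adjusted p = 1.64e-06). PRNP, the prion protein, which activates ADGRG6 in mice, had 0.63 and the teneurin TENM3 -0.69, both past the adjusted p only. The tetraspanins that associate with ADGRG1 had -0.60 for CD9 and -0.01 for CD81 (adjusted p = 0.00117 and 0.932, limma), and another CD9 probe had 0.08. The choice to name TGM2, PRNP, TENM3, CD9 and CD81 was made with their values in view.

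Of 24 G protein subunits, 17 were tested. Of these, 2 were lower and 0 higher at both thresholds, against 10.2% of all genes in either direction, so this count was near that of all genes. By the adjusted p alone 5 were higher and 8 lower, against 58.0% of all genes, and the median was -0.15. The 8 include GNG4, which passed the filter only through the L-INV arrays, so its test is not read. As a bound, GNG4 was lower by at least 1.17-fold in H-INV cells. GNAI1, an inhibitory alpha subunit, averaged 6.00 ± 0.127 on the H-INV arrays, against 7.17 ± 0.127 on the L-INV arrays (log2 units, SD over 3 arrays), which gave -1.18 as the log2 fold change (limma, adjusted p = 1.20e-05). Another of its probes had -0.53, and GNAI1 was past the fold threshold neither in the authors' table (-0.94) nor on the mean of its probes (-0.85). GNG12, a gamma subunit, fell by 1.06 in log2 units (limma, adjusted p = 9.36e-06), and by 0.99, under the fold threshold, without L-INV replicate 1. GNAS, the stimulatory alpha subunit through which ADGRG2 is known to raise cAMP, had -0.10 (limma, adjusted p = 0.224). GNAI2 (0.73), GNA12 (-0.76) and GNA13 (-0.26) passed the adjusted p only, and these and GNAS were named after their values were seen. The call of GNA13 was lost in 13 of 23 alternatives (adjusted p 0.00458 to 0.127 over the alternatives). Among the 5 higher by the adjusted p alone, GNB4 was lost in 12 of 23 alternatives and GNA11 in 11 of 23.

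Among 11 tested genes of receptor kinases, arrestins and adaptors, 2 were higher and 1 lower at both thresholds, against 10.2% of all genes in either direction. By the adjusted p alone 5 were higher and 2 lower, a share near the 58.0% of all genes, and the median was 0.19. ARRB1, the gene of beta-arrestin 1, which binds activated receptors and removes them from the surface, had log2 intensities of 9.42, 9.36 and 9.38 in H-INV cells, against 7.15, 6.95 and 7.18 in L-INV cells. It rose by 2.30 in log2 units, with a standard error of 0.08 (limma, adjusted p = 7.64e-08), and its 2 other probes by 0.65 and 1.10. The mean of its probes rose by 1.35, a smaller change. The receptor kinase GRK6 rose by 1.13 (adjusted p = 8.36e-06, limma), another of its probes having 0.81, and was under the fold threshold in the authors' table (0.94) and on the mean of its probes (0.97). ELMO1, an adaptor of Rac activation that binds receptors of the ADGRB group, fell by 1.25 in log2 units (limma, adjusted p = 3.39e-05), another of its probes having -0.31 and the mean of its probes -0.78, under the fold threshold.

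Of 15 tested genes of the cAMP pathway, 4 were lower and 0 higher at both thresholds, while 6.02% of all genes were lower. By the adjusted p alone 5 were higher and 6 lower, against 58.0% of all genes, and the median was -0.04. The 5 include PDE4A, which passed the filter only through the H-INV arrays, so its test is not read. As a bound, PDE4A was higher by at least 1.29-fold in H-INV cells. The 4 lower at both thresholds included the phosphodiesterases PDE4D (-1.65) and PDE3B (-1.01), which break cAMP down. The others were the subunits of protein kinase A PRKACB (-1.33), which is catalytic, and PRKAR1A (-1.25), which is regulatory. PRKAR1A averaged 11.60 ± 0.0425 on the H-INV arrays, against 12.86 ± 0.0472 on the L-INV arrays (log2 units, SD over 3 arrays), with an adjusted p of 8.60e-07 (limma). The adjusted p of the other 3 ran from 1.78e-06 for PDE4D to 0.000120 for PDE3B, and another PRKACB probe had -0.50. PDE3B was under the fold threshold in the authors' table (-0.78) and without H-INV replicate 1 (-0.90) or L-INV replicate 1 (-0.93), and PRKACB on the mean of its probes (-0.91). The 5 higher by the adjusted p alone included 2 further regulatory subunits of protein kinase A. These were PRKAR1B (0.65) and PRKAR2A (0.58), with adjusted p of 0.000420 and 0.000604 (limma), both named with their values in view. CFTR, the chloride channel that works with ADGRG2 in the reproductive ducts of mice, was not above background on at least 3 arrays and was not tested.

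Over the 4 lists, 9 further probes of the called genes were above background on at least 3 arrays. Of these 4 gave the same call, 5 passed the adjusted p in the same direction with a smaller change, and 0 gave an opposite call.

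**Figure D4:**
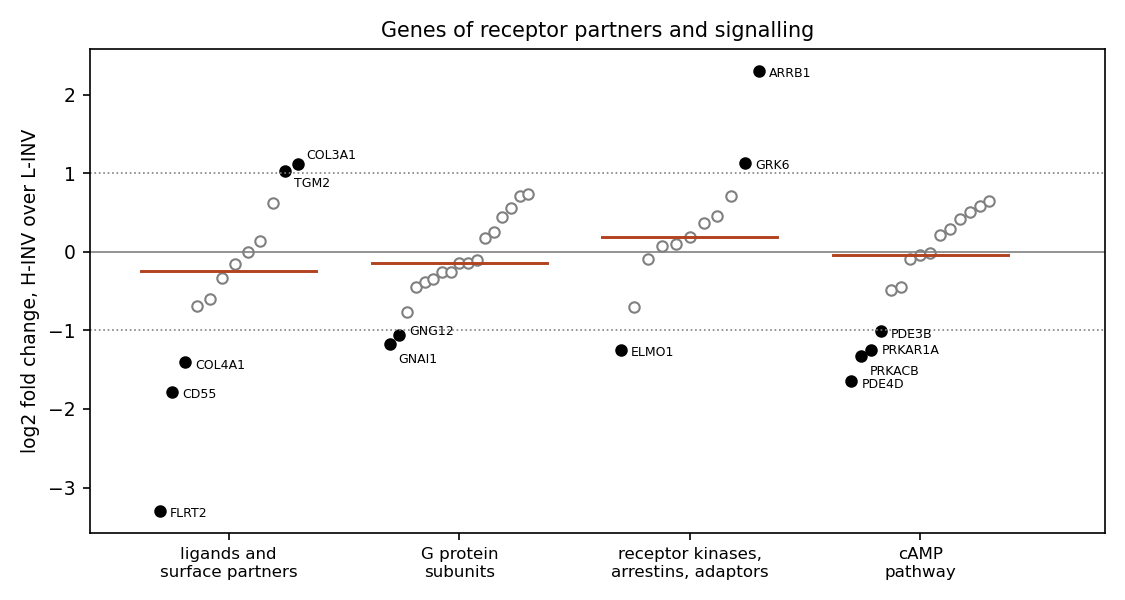
Log2 fold change of H-INV over L-INV cells (vertical axis) for the tested genes of 4 lists around the adhesion receptors, ordered by value within each list. Filled and named points passed both thresholds, open points did not, horizontal bars are list medians and dotted lines mark a fold change of 2. FLRT2 lies lowest at -3.30 and ARRB1 highest at 2.30.

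The genes most like ADGRG2 in their pattern were sought by the Euclidean distance between log2 values over the 6 arrays, each gene centred on its own mean. The 5 nearest of 10279 were RSPO3, an enhancer of Wnt signalling (distance 0.148), CPED1 (0.219), the anthrax toxin receptor ANTXR2 (0.307), the scaffold protein DLG2 (0.417) and JUP, the plakoglobin of cell junctions (0.438). RSPO3 had log2 intensities of 4.49, 4.40 and 4.29 in H-INV cells, against 10.04, 9.98 and 9.88 in L-INV cells. By the probe used and with this processing, RSPO3 was above background on no H-INV array and lower there by at least 22.9-fold. The same held for CPED1, ANTXR2 and DLG2, by at least 26.0-fold, 22.3-fold and 29.9-fold. JUP differed from these in having a signal on each of the 3 H-INV arrays, at 5.60 to 5.73. The arrays of each subpopulation are shared by all these genes, and values at background have no order among them, so the distances describe these 6 arrays only.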

How the data were processed

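The authors hybridised RNA of 3 sets of H-INV and 3 sets of L-INV cells to Illumina HT-12 v4 arrays, scanned them on a HiScan system and exported the data with GenomeStudio. The submitters' processing notes also name Partek. The main deposited table gives the raw scanner intensity of 47322 probes, linear and with its background left in. The authors deposited with it a detection p-value per probe and array, which sets the intensity against negative control probes. In the other deposited table, of 47320 probes, the authors had corrected background and quantile-normalized the intensity, and it served as an alternative after 40.0 was added to each value.

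The scanner intensities were corrected in limma 3.58.1 (R 4.3.3) by normexp, whose control levels came from the detection p-values, with an offset of 16, then quantile-normalized and put on the log2 scale. A probe was kept if its detection p was under 0.01 on 3 or more of the 6 arrays (16941 probes). The platform annotation pairs 30111 probes with 1 gene symbol, 8 with several and 17203 with none; 30072 Entrez IDs matched the GRCh38.p14 gene table, which changed 0 symbols. Each of 10279 genes was read by its brightest probe and fitted with lmFit and eBayes, with two-sided p-values adjusted by Benjamini-Hochberg and the thresholds that the methods give. Precision is limited by the number of arrays. The fit was tested on simulated data.

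The genes named are the 10 receptors, the family members above background on at least 3 arrays, up to 4 called genes of each list with the largest change, the 5 genes nearest to ADGRG2 and its neighbours. Further genes were named with their values in view, which is said beside them. One list of signalling genes is not reported here. The members and lists were chosen with earlier results of these data known. As alternatives, the fit was repeated on the authors' table, by the methods' one-way ANOVA, without background correction, with an offset of 50, with 75th percentile scaling, with other detection filters (none, all 6 arrays, or p under 0.05), on the mean of a gene's probes, with a trended prior, with replicate numbers as a block, without the fold threshold, and with each array left out. Those for the partner lists and the nearest genes, and leaving out an array with the tested genes kept, were added after the data were seen.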

Additional observations from a re-analysis of the deposited data

How the results depend on the processing

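ADGRG2 was lower in H-INV cells in every alternative that gave a value, with log2 differences of -4.85 in the authors' table, -3.42 without background correction, -4.37 with an offset of 50, -5.09 for the mean of its probes and -5.68 to -5.56 with 1 array left out. It gave no value with a filter on all 6 arrays, and it does not reach 3 arrays above background once an L-INV array is left out, so its value there comes from the probe without the filter. Of the other listed receptors 0 passed both thresholds in any alternative that kept the fold threshold, and 3 passed without it. Among the remaining family members the fit gave 1 call, that of ADGRG3, which its bound does not reach. ADGRG3 passed the filter only through the L-INV arrays, so its call is not read as a result. It was absent (0 calls) with a filter on all 6 arrays, with an offset of 50 and without background correction. There were 3 calls without the fold threshold, ADGRG3 among them, and 0 to 1 with 1 array left out. The 0 arose on leaving out L-INV replicate 1, 2 or 3, where the filter drops ADGRG3, and 1 was called with the tested genes kept. ADGRE5 passed the adjusted p in 11 of 23 alternatives (log2 fold change 0.18 to 0.32). The count over all genes, 1053, became 691 with an offset of 50, 467 without background correction, 639 with a filter on all 6 arrays, 5958 without the fold threshold and 838 to 1088 with 1 array left out. The partner lists held 14 calls, 7 without background correction, 10 with an offset of 50, 10 with the mean of probes, 11 in the authors' table, 39 without the fold threshold and 12 to 14 with 1 array left out. The calls lost without background correction were COL4A1 (-0.97), GNAI1 (-0.57), GNG12 (-0.91), GRK6 (0.62), ELMO1 (-0.74), PDE3B (-0.45) and PRKACB (-0.57), and an offset of 50 lost GNAI1 (-0.87), GRK6 (0.88), PDE3B (-0.71) and PRKACB (-0.91). Of the 5 genes nearest to ADGRG2, 2 were among the nearest with an offset of 50, 3 without background correction, and 4 to 5 with 1 array left out. With the replicate number as a block, the 1053 calls over all genes and 14 calls in the partner lists kept their number. The fitted 1 call of ADGRG3 also stayed and is likewise not read as a result. Same-numbered arrays did not deviate together (correlations -0.07, -0.02 and -0.09 across genes), so no pairing by number shows in these values. With 3 arrays per group, these correlations cannot settle whether the sets were prepared in pairs. What caused these changes was not tested beyond the arrays and genes that each filter leaves. Signal over background limits the rest: 32 of 46 family probes were not above background on any array.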

Other observations

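Of the nearest measured genes on either side of the listed receptors with probes but no signal, TNFRSF21, PLA2G7 and SLIT2 passed both thresholds. Over all genes, 10.2% did. TNFRSF21, a death receptor whose gene lies next to ADGRF1 on chromosome 6, averaged 6.28 ± 0.253 on the H-INV arrays, against 8.72 ± 0.0584 on the L-INV arrays (log2 units, SD over 3 arrays), and fell by 2.44 in log2 units (limma, adjusted p = 6.17e-07). ADGRF1 itself was not above background on any array by any of its 4 probes. PLA2G7, on the other side of ADGRF1 with 3 genes between, had a log2 difference of -1.55. Its H-INV mean of 4.53 lay below the lowest value above background on each H-INV array, so its call is not read as a result. SLIT2, the nearest measured gene on 1 side of the undetected ADGRA3 with 2 genes between, went the other way, with a log2 difference of 2.45. Its L-INV mean of 5.38 lay below the lowest value above background on each L-INV array (5.45 to 5.48), so the size of this rise is uncertain. CD2AP (0.23) and PTCHD4 (-0.27) around ADGRF4 did not pass both thresholds. Nor did IFI44 (-0.23) and ADGRL2 (0.75) around ADGRL4, or DHX15 (0.23) on the other side of ADGRA3. A link between a receptor and its neighbours was not tested, and these genes were named with their values in view.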
